A study of Mus musculus with 2 samples.

Results

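Cells labelled hypertrophic chondrocytes of mouse knee cartilage were described here in 2 single-cell RNA libraries. Hypertrophic chondrocytes are the enlarged chondrocytes that precede mineralisation, and here the name rests on RNA and not on cell size. One library came from knees after DMM, surgery that cuts loose the medial meniscus of the knee and is used as a model of osteoarthritis, and the other from knees after sham surgery. Both groups were WT mice and each library was pooled from 3 animals, so no value exists for a single mouse. Age, sex, strain and the time after surgery are not given in the sources used here. Cells released from the cartilage by enzyme digestion were sorted as viable (Calcein AM positive, DAPI negative) and as lacking CD45, Ter119 and CD31, surface proteins of blood, red cell and endothelial lineages. The labels name the sorted cells superficial, whereas the cells described here lie under a ceiling of Prg4, the lubricin gene of superficial cells.

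A cell was a member if it met 4 conditions in addition to a filter, which kept barcodes with 500 or more genes and no more than 10% of UMIs (unique molecular identifiers, the counted RNA molecules) from mitochondrial genes. It carried Col2a1, the collagen of cartilage, at 5000 CPM or more, where CPM are counts scaled to a common total per cell or class, and Prg4 under 5000 CPM. At least 2 of the genes Ihh, Panx3, Nrgn and Grb14 had 1 or more UMIs, and Mki67 and Top2a, which mark dividing cells, had at most 1 UMI together. These conditions gave 483 DMM cells and 640 sham cells, 1123 of the 22438 barcodes and of the 19881 filtered cells of both libraries. The levels of the genes in the rule chose the members, so they are given as a description and support nothing.

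In the growth plate, Indian hedgehog (Ihh) is made by chondrocytes that have just left the cycle and begun to enlarge. It acts through the receptor Ptch1 and raises parathyroid hormone-related protein (Pthlh), which signals through Pth1r and delays further enlargement. The transcription factors Runx2, Mef2c and Foxa2 drive the next step, in which cells make collagen X (Col10a1) and the phosphatase Alpl and later the mineral-binding proteins Ibsp and Spp1 and the collagenase Mmp13. Panx3 forms a membrane channel of such cells, Nrgn is a calmodulin-binding protein known from neurons, and Grb14 is an adaptor that restrains insulin receptor signalling.

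Of the filtered cells with Col2a1 over the floor, members were 27.1% [25.1, 29.2] in DMM (483 of 1781) and 28.6% [26.8, 30.5] in sham (640 of 2236). Their ratio of DMM to sham was 0.947 [0.840, 1.07], so a difference in share was not detectable within chondrocytes at this depth. After each cell was thinned to 3000 UMIs, which kept 283 DMM and 367 sham members, the ratio was 0.959. Of all filtered cells, members were 4.88% in DMM and 6.41% in sham, with a ratio of 0.763 [0.676, 0.860]. All bracketed 95% intervals cover counting error only (Clopper-Pearson for shares, exact conditional binomial for ratios), not differences between mice or preparations. Those of gene ratios treat UMIs as independent and leave out differences between cells, so they are too narrow where UMIs sit in few cells. With 1 library per group there is no test between DMM and sham anywhere below.

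Members held a median of 16142 UMIs in DMM and 18573.5 UMIs in sham. The remaining non-cycling Prg4-low chondrocytes, which carried fewer than 2 of the 4 genes, were shallower, with medians of 12317 UMIs in 945 DMM cells and 13498.5 UMIs in 1134 sham cells. Scrublet, a doublet caller, marked 21 DMM and 28 sham members, which were kept. The libraries shared 24 barcodes, none of which belonged to a member. Summed markers of neutrophils and macrophages reached 5.87 CPM in DMM members and 5.69 CPM in sham members, with Ptprc at 0 in both. Endothelial markers reached 3.30 CPM in DMM members and 3.90 CPM in sham members.

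Panx3 was the most widely detected gene of the rule and Ihh the least. Panx3 had a UMI in 98.6% of DMM members and 99.1% of sham members, and Grb14 in 87.0% of DMM and 87.8% of sham members. Nrgn was detected in 74.7% of DMM members and 68.3% of sham members. Ihh was detected in 33.5% of DMM members and 34.8% of sham members. In erythroid cells that the sort left behind, defined by haemoglobin at 200000 CPM or more, Ihh had a UMI in 0.280% of 357 DMM cells and 0.268% of 746 sham cells. Those cells had lower median depths, 6425 UMIs in DMM and 5920.5 UMIs in sham. Shares of erythroid cells given here and below are therefore not at the depth of members. All 4 genes were present together in 131 DMM and 189 sham members. Panx3, Nrgn and Grb14 without Ihh were found in 166 DMM and 175 sham members, and Panx3 with Grb14 alone in 99 DMM and 174 sham members.

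Most cells that were 1 gene short of the rule carried Panx3. Among the other Prg4-low chondrocytes, 489 DMM and 599 sham cells carried exactly 1 of the 4 genes, and in 447 of these DMM cells and 548 of these sham cells it was Panx3. Few members stood near the Col2a1 floor: 2 DMM and 6 sham members lay within 20% above it, and 4 DMM and 6 sham cells with 2 or more of the genes lay within 20% below it.

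Alpl, alkaline phosphatase, is a marker of hypertrophy that the rule did not use, and it was high in the members of both libraries. In the DMM library it was at 1274 CPM in members and 229 CPM in the other Prg4-low chondrocytes, a log2 ratio of 2.48 [2.42, 2.54]. In the sham library it was at 1268 CPM in members and 182 CPM in the other chondrocytes, a log2 ratio of 2.80 [2.74, 2.86]. It had a UMI in 94.4% of DMM members and 93.1% of sham members, against 4.48% of DMM and 4.16% of sham erythroid cells. Alpl was thus detected in most members. It is among the marker genes of this class, which were chosen with earlier results of these data known. Its level is therefore a description and no independent support for the name.

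Col10a1 (mm10, chr10:34389981-34397085, plus strand), the collagen that defines mature hypertrophic cells, was far apart between the classes but rested on few cells. In DMM it was at 720 CPM in members and 18.0 CPM in the other chondrocytes, a log2 ratio of 5.32 [5.12, 5.53]. In sham it was at 1126 CPM in members and 12.8 CPM in the other chondrocytes, a log2 ratio of 6.46 [6.26, 6.67]. It was detected in 17.6% [14.3, 21.3] of DMM members and 19.7% [16.7, 23.0] of sham members, against 3.64% of DMM and 4.69% of sham erythroid cells. Erythroid cells were shallower than members, and the part of depth in this gap was not tested. The tenth of members with the highest counts (48 DMM and 64 sham cells) held 99.2% of the Col10a1 UMIs in DMM and 98.5% in sham. The other members with a Col10a1 UMI thus held few. Superficial chondrocytes, with Col2a1 and Prg4 both over 5000 CPM, carried Col10a1 at 480 CPM in DMM and 567 CPM in sham, so Col10a1 was not particular to members.

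Mmp13, the collagenase of late hypertrophy, was no higher in members than in erythroid cells. It was at 10.3 CPM in DMM members and 8.95 CPM in sham members, with a UMI in 5.18% of DMM and 3.28% of sham members. Erythroid cells carried it at 11.7 CPM in DMM and 31.3 CPM in sham, with a UMI in 2.52% of DMM and 3.49% of sham cells. The 84 Mmp13 UMIs of DMM members lay in 25 cells and the 110 UMIs of sham members in 21 cells, so members with a UMI held several on average. The 43 DMM and 53 sham cells that met every other condition but lay under the Col2a1 floor carried more Mmp13, at 513 CPM in DMM and 1290 CPM in sham. They also carried Col1a1, the collagen of bone and fibrous tissue, at 35262 CPM in DMM and 26080 CPM in sham. Ibsp was detected in 46.0% of DMM and 47.2% of sham members, against 9.80% of DMM and 10.6% of sham erythroid cells. Most members thus had Alpl and Panx3, a minority Ihh and Ibsp, and fewer Col10a1, while Mmp13 was found in few cells. The name hypertrophic therefore covers many cells without a UMI of Ihh or Col10a1, and the stage of such cells was not tested.

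**Figure D1:**
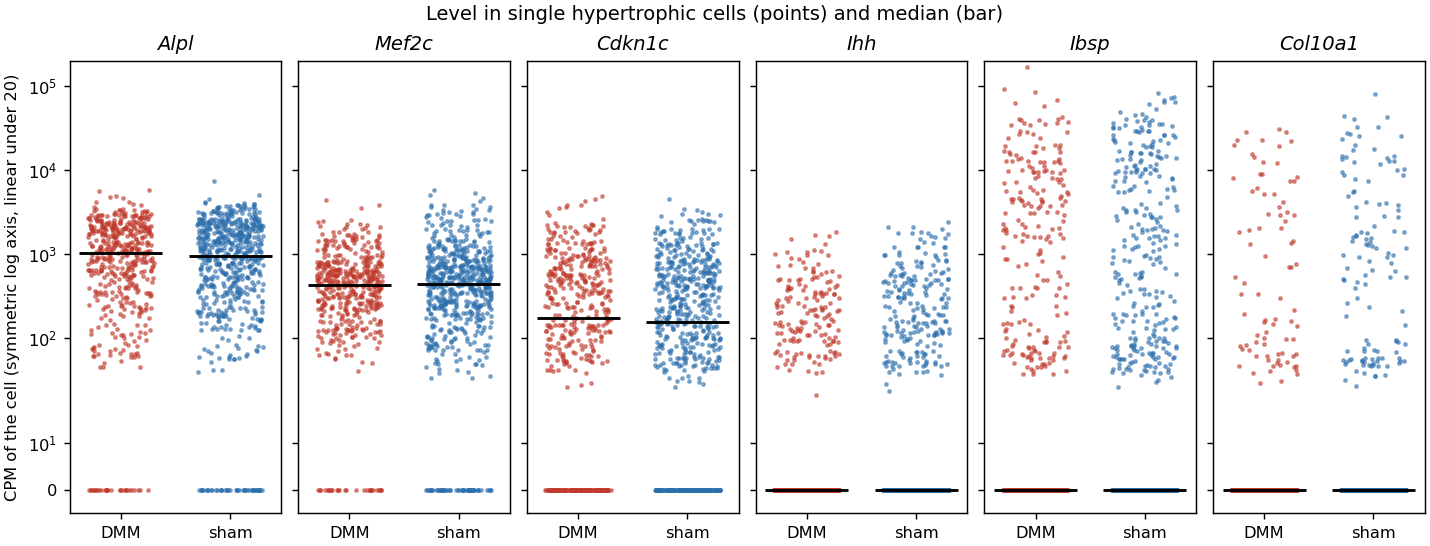
Level of 6 genes in single hypertrophic cells of the DMM library (red, 483 cells) and the sham library (blue, 640 cells), in CPM of each cell on an axis that is logarithmic above 20 CPM and linear below. Each point is a cell and each bar the median; Alpl and Mef2c have medians above 0 in both libraries, while the medians of Ihh, Ibsp and Col10a1 are 0 and single cells reach 31328 CPM (DMM) and 79994 CPM (sham) of Col10a1.

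Promoter sequences are shown for Col10a1 and Ibsp, whose UMIs sat in few members, and for Ihh, the signal in the label. They are RefSeq sequences of build GRCm38.p6, covering 250 bases before to 50 bases after the annotated start, read 5′ to 3′ on the gene's strand. Capitals mark TATAAA or its reverse complement TTTATA. Col10a1 lies at chr10:34389731-34390030 on the plus strand, Ibsp at chr5:104299037-104299336 on the plus strand and Ihh at chr1:74951623-74951922 on the minus strand.
Col10a1: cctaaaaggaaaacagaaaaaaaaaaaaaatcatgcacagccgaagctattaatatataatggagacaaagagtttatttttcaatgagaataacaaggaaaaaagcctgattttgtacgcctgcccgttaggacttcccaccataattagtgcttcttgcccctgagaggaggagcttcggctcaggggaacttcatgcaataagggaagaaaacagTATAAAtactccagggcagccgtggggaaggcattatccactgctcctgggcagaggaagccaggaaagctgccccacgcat
Ibsp: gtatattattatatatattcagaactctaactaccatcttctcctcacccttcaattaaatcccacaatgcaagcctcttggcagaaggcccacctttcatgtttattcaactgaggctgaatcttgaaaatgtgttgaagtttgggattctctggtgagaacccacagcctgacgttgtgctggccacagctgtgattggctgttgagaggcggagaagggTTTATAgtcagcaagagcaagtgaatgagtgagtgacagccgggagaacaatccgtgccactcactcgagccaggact
Ihh: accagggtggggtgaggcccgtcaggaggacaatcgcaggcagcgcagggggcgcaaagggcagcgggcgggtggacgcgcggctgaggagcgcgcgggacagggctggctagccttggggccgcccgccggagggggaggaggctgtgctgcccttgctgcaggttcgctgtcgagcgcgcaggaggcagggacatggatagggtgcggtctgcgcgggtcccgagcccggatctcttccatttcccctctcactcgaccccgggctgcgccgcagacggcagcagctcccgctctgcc
The Ihh promoter was 72.7% G and C with 30 CpG dinucleotides and held none of the motifs searched. The Col10a1 promoter was 44.3% G and C with 6 CpG dinucleotides and that of Ibsp 46.3% with 5, against a median of 52.7% over all 32851 promoters.

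The letters were searched on both strands in the promoters of the 4 rule genes and of the 20 genes highest in members, of which 18 genes matched the RefSeq table with 26 promoters. TATAAA was present in 9 of these 26 promoters (34.6%), against 13.6% of all promoters. Of the 12 genes lowest in members, 7 matched with 10 promoters, and TATAAA was present in 3 of these 10 (30%). The letters were thus not confined to the genes high in members, though this low set is small. The RUNX letters ACCACA were present in 3 (11.5%), against 16.8% of all promoters. The FOXA letters TGTTTAC and the MEF2 letters CTANNNNTAG, which can contain TATAAA, were in 0 of 26, against 3.65% and 3.69% of all promoters. A match says only that these letters stand in the window.

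Against the other Prg4-low chondrocytes, members carried higher levels of the transcription factors Mef2c and Foxa2, the cell cycle inhibitor gene Cdkn1c and the ligands Bmp2 and Bmp6 in both libraries. Of 9364 genes with at least 100 UMIs, 164 (1.75%) were at least 2-fold higher in members in both libraries and 205 (2.19%) at least 2-fold lower, 3.94% in either direction. The median log2 ratio of all genes was -0.10 in DMM and -0.08 in sham.

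Mef2c was at 579 CPM in members and 104 CPM in the other chondrocytes of the DMM library, and at 658 CPM in members and 101 CPM in the other chondrocytes of the sham library. Foxa2, a forkhead factor of hypertrophy, was at 62.3 CPM in DMM members and 60.7 CPM in sham members, and the interval of its log2 ratio over the others ran between 2.22 and 2.79 in DMM and between 2.39 and 2.91 in sham. Runx2 and Sp7, the osteoblast and hypertrophy factors, did not separate the classes. Runx2 was at 726 CPM in members and 694 CPM in the others of DMM, and its log2 ratio was 0.06 [0.02, 0.11] in DMM and 0.04 [0.00, 0.07] in sham. The log2 ratio of Sp7 was 0.11 [-0.04, 0.25] in DMM and 0.14 [0.02, 0.26] in sham.

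Cdkn1c, which encodes the cell cycle inhibitor p57, was at 496 CPM in members and 52.8 CPM in the others of DMM, and at 435 CPM in members and 47.9 CPM in the others of sham. Ccnd1, cyclin D1, went the other way, at 54.5 CPM in members and 212 CPM in the others of DMM, and at 64.7 CPM in members and 235 CPM in the others of sham. Cells with over 1 UMI of Mki67 and Top2a were outside both classes, so neither value is a count of dividing cells.

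Of the 29 measured genes of a hypertrophy and mineralisation list, 10 were at least 2-fold higher in members and 3 at least 2-fold lower. Among all genes those shares were 1.75% and 2.19%. The list's median log2 ratio was 0.60 in DMM and 0.59 in sham. Beside Col10a1, Alpl, Mef2c and Foxa2, the higher genes were Ibsp, Bglap, Smpd3, Phex, Vdr and Cd200. Phex, an endopeptidase that regulates phosphate, was at 32.2 CPM in members and 2.82 CPM in the others of DMM, and at 47.3 CPM in members and 4.17 CPM in the others of sham. Smpd3, a neutral sphingomyelinase needed for bone mineral, was at 706 CPM in members and 186 CPM in the others of DMM, and at 776 CPM in members and 213 CPM in the others of sham. The 3 lower genes act against mineral or move phosphate. Mgp, an inhibitor of cartilage mineralisation, was at 11771 CPM in members and 34686 CPM in the others of DMM, and at 10570 CPM in members and 29067 CPM in the others of sham. Ank, which exports pyrophosphate, had log2 ratios of -1.29 in DMM and -1.13 in sham, and the phosphate transporter Slc20a1 -1.11 in DMM and -1.23 in sham. Bglap shares near-identical copies with Bglap2 and Bglap3, so its counts are uncertain.

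Ibsp, bone sialoprotein, was higher in members by a log2 ratio of 1.68 [1.65, 1.70] in DMM and 3.09 [3.05, 3.12] in sham. It was at 4362 CPM in members and 1364 CPM in the others of DMM, and at 4134 CPM in members and 487 CPM in the others of sham. The 2 libraries thus had like levels in members and unlike levels in the other chondrocytes. Without cells in which over 1% of UMIs came from Col1a1, Col1a2, Col3a1 and haemoglobin genes, the log2 ratio of Ibsp was 2.34 in DMM and 3.19 in sham. Spp1, osteopontin, had log2 ratios of -0.25 in DMM and 0.59 in sham, and without those cells 0.28 in DMM and 0.67 in sham. The markers of osteoblasts and osteocytes summed to 3601 CPM in members and 2404 CPM in the others of DMM, and to 2539 CPM in members and 1186 CPM in the others of sham. Bglap made up 47.4% of the sum in DMM members and 56.4% in sham members, and Sost, an osteocyte gene, was at 0 in both. The part of osteoblast RNA in these values was not tested.

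Genes of the Hedgehog and PTHrP pathways stood on both sides. Pth1r, the PTHrP receptor, was at 1274 CPM in members and 460 CPM in the others of DMM, and at 1062 CPM in members and 407 CPM in the others of sham. Disp1, which releases Hedgehog ligands from the cells that make them, had log2 ratios of 2.73 [2.33, 3.15] in DMM and 2.55 [2.24, 2.88] in sham. The response side was lower in members. Hhip, a decoy receptor and target of Hedgehog signalling, was at 20.0 CPM in members and 142 CPM in the others of DMM, and at 33.1 CPM in members and 185 CPM in the others of sham. Gli1, a target and effector, had log2 ratios of -1.53 in DMM and -1.17 in sham, and the effector Gli2 -2.32 in DMM and -1.91 in sham. The receptor and target Ptch1 was at 237 CPM in members and 340 CPM in the others of DMM, and at 265 CPM in members and 390 CPM in the others of sham, under the 2-fold limit. Of 19 measured genes on this list 3 were higher and 4 lower, beside 1.75% and 2.19% of all genes. The list's median log2 ratio was -0.43 in DMM and -0.42 in sham.

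Among 30 genes of BMP and TGF-beta signalling, 5 were higher in members and 1 was lower, beside 1.75% and 2.19% of all genes. The growth factor Bmp6 was at 407 CPM in members and 71.8 CPM in the others of DMM, and at 544 CPM in members and 102 CPM in the others of sham. Bmp2 was at 237 CPM in members and 41.6 CPM in the others of DMM, and at 329 CPM in members and 48.8 CPM in the others of sham. The BMP antagonist Nog had log2 ratios of 1.47 in DMM and 1.29 in sham. Id2, a target of BMP signalling, was the 1 lower gene, with log2 ratios of -1.05 in DMM and -1.17 in sham. The list's median was 0.10 in DMM and 0.16 in sham.

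Further genes high in members were enzymes and signalling proteins outside those lists. Enpp2, autotaxin, which makes the lipid signal lysophosphatidic acid, was at 403 CPM in members and 59.5 CPM in the others of DMM, and at 430 CPM in members and 62.2 CPM in the others of sham. Hpgd, which breaks down prostaglandins, had log2 ratios of 2.93 in DMM and 2.83 in sham, and Ptgs2, which starts their synthesis, 1.28 in DMM and 1.12 in sham. Prkg1, a cGMP-dependent protein kinase, was at 728 CPM in members and 158 CPM in the others of DMM, and at 1121 CPM in members and 240 CPM in the others of sham. Tnni2, a troponin of fast muscle also present in cartilage, had log2 ratios of 2.45 in DMM and 2.23 in sham. The sodium-calcium exchanger Slc8a3 had log2 ratios of 2.19 in DMM and 2.48 in sham, and the protease Lgmn 2.03 in both libraries.

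Genes of resting and deep cartilage were low in members. Of 9 measured genes on that list 6 were at least 2-fold lower and 0 higher, beside 2.19% and 1.75% of all genes. The list's median log2 ratio was -1.29 in DMM and -1.23 in sham. Apoe, the lipid carrier, was at 97.2 CPM in members and 627 CPM in the others of DMM, and at 86.9 CPM in members and 599 CPM in the others of sham. The calmodulin-binding Pcp4 had log2 ratios of -1.95 in DMM and -2.01 in sham, and Pax1, a paired-box factor of the skeleton, -1.29 in DMM and -1.23 in sham. Of 21 Wnt pathway genes 4 were lower, beside 2.19% of all genes. The 4 included the secreted inhibitors Wif1, at -2.79 in DMM and -2.52 in sham, and Notum, at -2.29 in DMM and -2.12 in sham. Frzb, another secreted Wnt inhibitor, was the 1 higher gene, at 1.52 in DMM and 1.42 in sham. Cartilage matrix genes as a group were nearly level, with a median of 0.12 in DMM and 0.17 in sham. Of 28 such genes 2 were higher and 2 lower, beside 1.75% and 2.19% of all genes. Acan, aggrecan, was at 3611 CPM in DMM members and 3849 CPM in sham members.

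**Figure D2:**
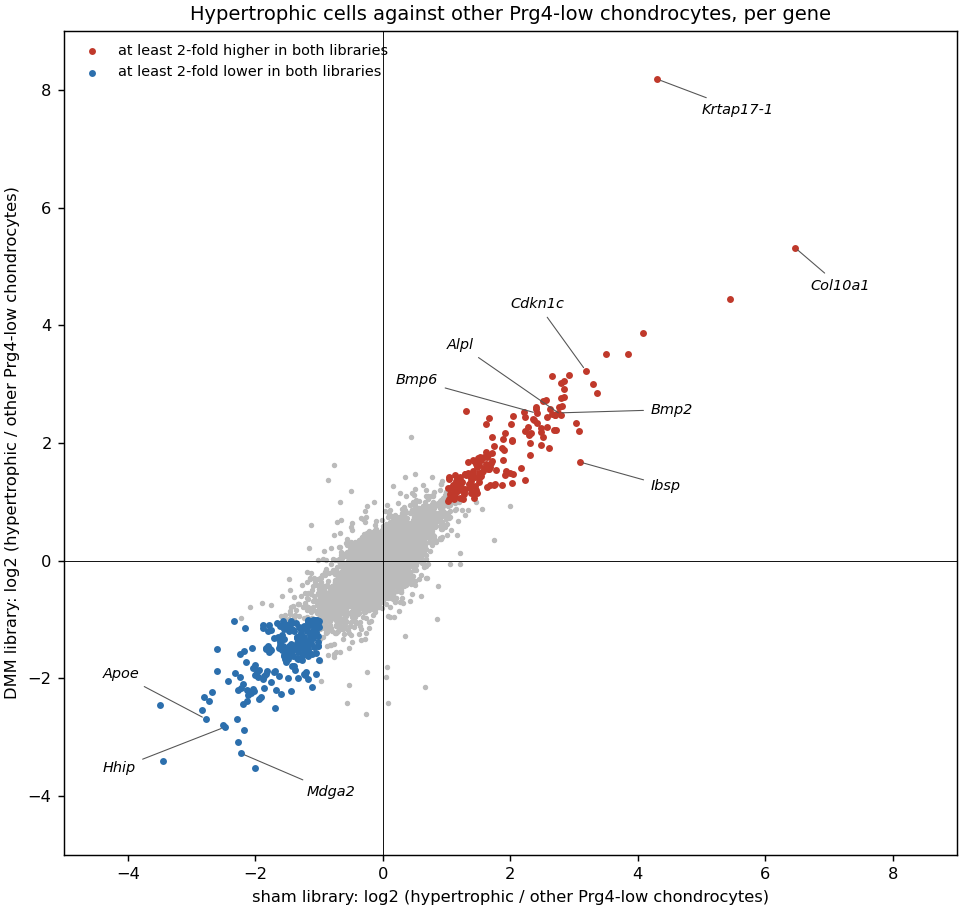
Log2 ratio of hypertrophic cells over other Prg4-low chondrocytes for each of 9364 genes, in the DMM library (vertical axis) and the sham library (horizontal axis); red points are at least 2-fold higher and blue points at least 2-fold lower in members of both libraries. Col10a1 stands at 5.32 in DMM and 6.46 in sham, and the uppermost point, Krtap17-1, named after its value was seen, had 1 UMI in the other chondrocytes of DMM and a ratio of 8.19 [5.69, 13.50] there.

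Some of these genes did not set members apart from superficial chondrocytes (242 DMM and 241 sham cells). Bmp2 was at 237 CPM in members and 430 CPM in superficial cells of DMM, and at 329 CPM in members and 427 CPM in superficial cells of sham. Enpp2 had log2 ratios of members over superficial cells of -0.15 in DMM and -0.40 in sham, and Cd200, a surface glycoprotein, 0.36 in DMM and -0.07 in sham. Alpl, Mef2c and Foxa2 did set them apart. Alpl was at 1274 CPM in members and 269 CPM in superficial cells of DMM, and at 1268 CPM in members and 268 CPM in superficial cells of sham. Foxa2 had log2 ratios of 3.10 in DMM and 2.18 in sham, and Mef2c 2.12 in DMM and 1.98 in sham.

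Levels of several genes differed by step with the number of the 4 genes detected, from 0 in 456 DMM and 535 sham cells to 4 in 131 DMM and 189 sham cells. From 0 to 4 genes, Alpl was at 217, 238, 577, 1271 and 1937 CPM in DMM and at 135, 218, 582, 1252 and 2030 CPM in sham. Col10a1 was at 19.8, 16.6, 89.8, 494 and 1610 CPM in DMM and at 5.51, 18.3, 93.3, 681 and 2688 CPM in sham. Both genes were thus highest in cells with all 4, and members with 2 genes lay below the mean level of all members.

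Ccnd1 followed the opposite order, at 267, 168, 108, 37.6 and 26.2 CPM in DMM and at 302, 184, 104, 60.4 and 25.5 CPM in sham. Ptch1 was highest in cells with 1 gene, at 287, 382, 309, 252 and 148 CPM in DMM and at 323, 442, 362, 254 and 171 CPM in sham. Mmp13 did not exceed 20.4 CPM in any step of either library. Median depth moved along with these steps, at 11313.5, 13127, 14037, 16546 and 18006 UMIs in DMM and at 12413, 14352, 16788, 19085 and 20597 UMIs in sham. The part of depth in the steps was not tested.

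**Figure D3:**
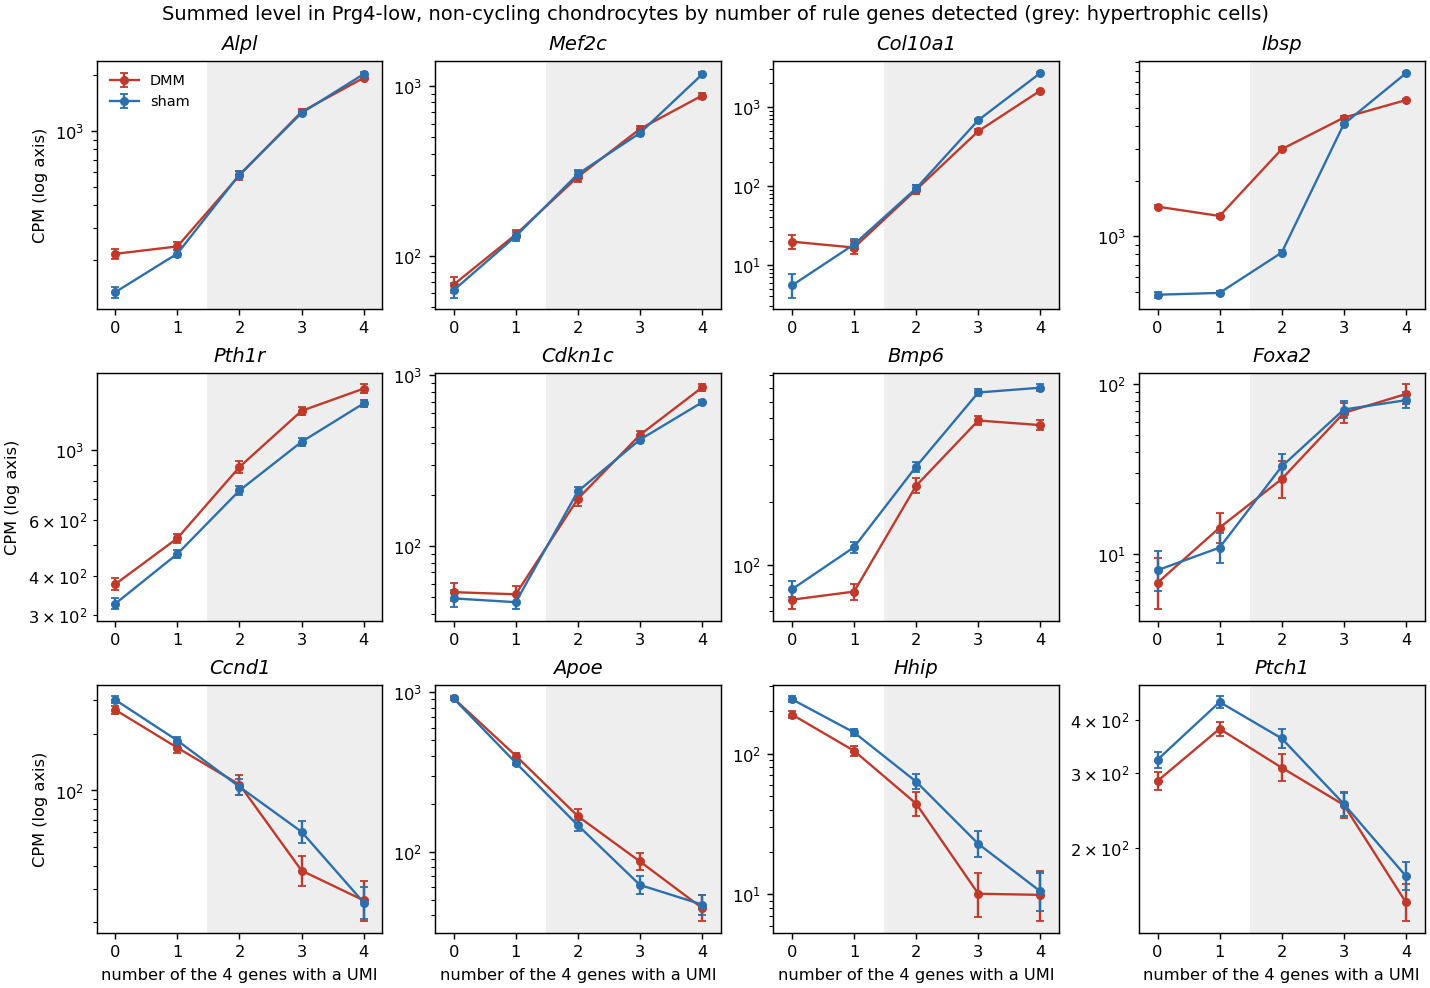
Summed level of 12 genes (CPM, log axis) in non-cycling Prg4-low chondrocytes against the number of the genes Ihh, Panx3, Nrgn and Grb14 with a UMI, for DMM (red) and sham (blue); bars are 95% Poisson intervals and grey marks the hypertrophic cells. Alpl, Mef2c, Col10a1 and Cdkn1c are highest at 4 genes in both libraries, and Ccnd1, Apoe and Hhip are lowest there.

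Summed Spp1 and Ibsp were higher in members with a Col10a1 UMI (85 DMM and 126 sham cells) than in members without. The median Col10a1 level over members was 0, so this split at the median is the same as a split by detection. Spp1 was at 2781 CPM in members with Col10a1 and 310 CPM in members without in DMM, and at 1176 CPM with and 220 CPM without in sham. Ibsp was at 8905 CPM with and 3263 CPM without in DMM, and at 11455 CPM with and 2114 CPM without in sham. Ihh was at 199 CPM with and 88.2 CPM without in DMM, and at 288 CPM with and 110 CPM without in sham. Summed Spp1 and Ibsp, which the rule did not use, were thus higher beside Col10a1 in both libraries. Spp1 had a UMI in 34.1% of members with Col10a1 in DMM and 28.6% in sham, against 28.0% and 21.7% of all members. A single cell held 30.7% of the Spp1 UMIs of DMM members and a single cell 25.4% of those of sham members. Ibsp had a UMI in 77.6% of members with Col10a1 in DMM and 74.6% in sham, against 46.0% and 47.2% of all members. Ihh and, below, Nrgn and Panx3 are genes of the rule, so their values are a description and support nothing.

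Bmp2 was higher beside Col10a1 by log2 ratios of 1.51 in DMM and 1.22 in sham, and Nrgn by 1.23 in DMM and 1.02 in sham. Phex had log2 ratios of 2.28 in DMM and 2.25 in sham. Panx3 was nearly equal on both sides, at -0.08 [-0.20, 0.04] in DMM and -0.19 [-0.28, -0.11] in sham. Ptch1 was lower beside Col10a1, at -0.58 in DMM and -0.59 in sham. Median depth was 17535 UMIs in DMM cells with Col10a1 and 15894 UMIs in those without, and 20044.5 UMIs in sham cells with it and 18023.5 UMIs in those without.

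Between the libraries, members carried similar Alpl, more Nrgn and slightly more Pth1r in DMM, and less Col10a1, Ihh, Bmp6 and Runx2 in DMM. Nrgn and Ihh belong to the rule, and Bmp6 and Runx2 were also lower in DMM in the other chondrocytes. In summed values alone, fewer RNA molecules per cell and fewer cells with the RNA cannot be told apart. Ihh had a UMI in 33.5% of DMM and 34.8% of sham members, and those cells carried it at 298 CPM in DMM and 396 CPM in sham. Col10a1 had a UMI in 17.6% of DMM and 19.7% of sham members, and those cells carried it at 3698 CPM in DMM and 5208 CPM in sham. Of 9447 genes with at least 100 UMIs in members, 158 (1.67%) were at least 1.5-fold higher in DMM and 845 (8.94%) at least 1.5-fold lower. The median log2 ratio of all genes was -0.15. With median-of-ratios scaling, which sets that median aside, 457 genes were higher and 365 lower, so the higher share of the genes past the limit was 55.6% in place of 15.8%. A log2 ratio between -0.15 and 0 turned positive under that scaling.

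Col10a1 was at 720 CPM in DMM members and 1126 CPM in sham members, a log2 ratio of -0.64 [-0.69, -0.60]. It was at 18.0 CPM in DMM and 12.8 CPM in sham in the other Prg4-low chondrocytes, a log2 ratio of 0.50 [0.21, 0.78]. Within that class, cells with 0 of the 4 genes had 19.8 CPM in DMM and 5.51 CPM in sham. Those with 1 gene had 16.6 CPM in DMM and 18.3 CPM in sham. The share of members with a Col10a1 UMI, 17.6% in DMM and 19.7% in sham, had overlapping intervals. The log2 ratio in members lay between -0.97 and -0.50 over 12 alternatives, a wider range than its interval. The difference between the classes was not tested.

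The 4 rule genes are given as a description. Ihh was at 110 CPM in DMM and 148 CPM in sham, and Panx3 at 482 CPM in DMM and 570 CPM in sham. Grb14 was at 193 CPM in DMM and 241 CPM in sham, and Nrgn at 344 CPM in DMM and 238 CPM in sham. Nrgn alone of the 4 was higher in DMM, with a log2 ratio of 0.53 [0.45, 0.60].

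Alpl was at 1274 CPM in DMM members and 1268 CPM in sham members, a log2 ratio of 0.01 [-0.03, 0.04]. Ibsp was at 4362 CPM in DMM and 4134 CPM in sham, a log2 ratio of 0.08 in members and 1.49 in the other chondrocytes. Pth1r was at 1274 CPM in DMM and 1062 CPM in sham, a log2 ratio of 0.26 [0.23, 0.30]. These 3 were within 1.5-fold of equal in members. Spp1 was at 791 CPM in DMM and 427 CPM in sham, a log2 ratio of 0.89 [0.84, 0.94]. A single cell held 30.7% of the Spp1 UMIs of DMM members and a single cell 25.4% of those of sham members, and with these cells left out the ratio was 0.78. Over 12 alternatives the log2 ratio of Spp1 lay between 0.35 and 1.35, a range that reaches under the 1.5-fold limit. Of 29 measured genes in the hypertrophy and mineralisation list, Spp1 alone was past 1.5-fold higher and Slc20a2 and Col10a1 lower. All genes stood at 1.67% higher and 8.94% lower, and the list's median was -0.08.

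Runx2 was at 726 CPM in DMM and 977 CPM in sham (-0.43), Bmp6 at 407 CPM in DMM and 544 CPM in sham (-0.42), and Bmp2 at 237 CPM in DMM and 329 CPM in sham (-0.47). The angiogenic factor Vegfa was at 81.3 CPM in DMM and 110 CPM in sham (-0.43). All 4 were lower in DMM and short of 1.5-fold. In the other chondrocytes the log2 ratio was -0.46 for Runx2, -0.51 for Bmp6, -0.62 for Vegfa and -0.23 for Bmp2. By gene span, Runx2 and Bmp6 fall in the longest of 5 equal groups of genes. The median of that group was -0.40 in members and -0.37 in the other chondrocytes, and the part of span was not tested. Mef2c was at 579 CPM in DMM and 658 CPM in sham (-0.18). Sox9 (-0.12), Acan (-0.09) and Fgfr3 (-0.04), genes of the chondrocyte state and of its growth control, were closer to equal than the median of all genes.

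Of 19 Hedgehog and PTHrP genes, 0 were past the limit higher in DMM and 5 lower (Gli2, Evc2, Scube2, Hhip and Sufu), beside 8.94% lower among all genes. Below 0 were 14 of the 19, beside 6097 of all 9447 genes. The list's median was -0.28 in members and -0.25 in the other chondrocytes. Hhip was at 20.0 CPM in DMM and 33.1 CPM in sham, a log2 ratio of -0.73. Ptch1 was at 237 CPM in DMM and 265 CPM in sham. Pthlh, the PTHrP gene, had 6 UMIs in DMM members and 23 UMIs in sham members, so members carried little of the ligand in either library.

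Axon guidance and neurotrophic genes had the lowest median of the lists with 10 or more measured genes, -0.62 in members and -0.55 in the other chondrocytes. Of 12 measured, 7 were past the limit lower and 0 higher, beside 8.94% and 1.67% of all genes. Sema3d, a secreted guidance cue, was at 196 CPM in DMM members and 361 CPM in sham members, a log2 ratio of -0.88 [-0.97, -0.80], against -0.44 in the other chondrocytes. Of 15 vessel and osteoclast signals, 4 were higher and 2 lower, beside 1.67% and 8.94% of all genes. Tnfrsf11b, osteoprotegerin, which restrains osteoclasts, was at 268 CPM in DMM members and 481 CPM in sham members, a log2 ratio of -0.84 [-0.91, -0.77], against -0.26 in the other chondrocytes. The chemokine Cxcl12 was at 79.1 CPM in DMM and 26.9 CPM in sham, but a single cell held 42.6% of its DMM UMIs.

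Respiratory chain genes moved by small amounts in 1 direction. Of 33 oxidative phosphorylation genes 32 were above 0, beside 3350 of all 9447 genes. The list's median was 0.39 in members and 0.40 in the other chondrocytes, and 1 gene passed the limit, beside 1.67% of all genes. That gene, the cytochrome oxidase subunit Cox7a2, was at 243 CPM in DMM members and 161 CPM in sham members. Of 25 antioxidant and metallothionein genes 19 were above 0, with a median of 0.24 in members and 0.27 in the other chondrocytes. Ratios moved with gene length: in 5 equal groups of genes from the shortest to the longest span, medians in members were 0.20, -0.01, -0.15, -0.29 and -0.40. In the other chondrocytes those medians were 0.19, -0.00, -0.15, -0.27 and -0.37. The part of gene span in the values of lists and single genes was not tested.

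The genes highest in DMM by the naming rule were led by fibrous collagens. Col1a1 was at 626 CPM in DMM members and 229 CPM in sham members, a log2 ratio of 1.45 [1.38, 1.52]. Without 11 DMM and 8 sham members in which over 1% of UMIs came from Col1a1, Col1a2, Col3a1 and haemoglobin genes, Col1a1 was at 123 CPM in DMM and 102 CPM in sham, a log2 ratio of 0.26. Col3a1 had a log2 ratio of 1.28 with those members and 0.43 without them, and the calcium-binding S100a4 1.28 with them and 0.79 without. Col1a1 and Col3a1 themselves chose the cells left out, so the fall of their ratios under 1.5-fold was built into this step. S100a4 had no part in that choice, and its ratio was smaller but still past 1.5-fold.

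Crip1 and Klf2, which also had no part in that choice, changed less than S100a4. Crip1, a LIM domain protein, was at 370 CPM in DMM and 168 CPM in sham, a log2 ratio of 1.14 with those members and 1.04 without them. Klf2, a transcription factor induced by fluid flow in vessels, was at 671 CPM in DMM and 399 CPM in sham, 0.75 with those members and 0.76 without them. Klf2 is also on a list of genes of dissociation stress. Of its 20 measured genes, Klf2 was the 1 past 1.5-fold higher in DMM, and Hspa1a and Hspa1b were the 2 lower. All genes stood at 1.67% higher and 8.94% lower, and the part of dissociation was not tested. Fxyd3, a regulator of the sodium pump, was at 433 CPM in DMM and 267 CPM in sham, a log2 ratio of 0.70 [0.63, 0.77] in members and 0.44 in the other chondrocytes.

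The genes lowest in DMM included Col12a1, a fibril-associated collagen. It was at 535 CPM in DMM members and 1089 CPM in sham members, a log2 ratio of -1.03 [-1.08, -0.98], and of -0.73 in the other chondrocytes. Susd5, a membrane protein, was at 293 CPM in DMM and 553 CPM in sham, a log2 ratio of -0.92. The potassium channel gene Kcnd2 had 204 UMIs in DMM members and 780 UMIs in sham members, a log2 ratio of -1.35 [-1.57, -1.12] in members and of -0.31 in the other chondrocytes, with 24.5% of its DMM UMIs in a single cell. Mbd2, which binds methylated DNA, was at -1.14 in members and -1.07 in the other chondrocytes, and the RNA-binding Hnrnpa0 at -1.06 in members and -1.09 in the others.

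The haemoglobin gene Hbb-bs was at 95.2 CPM in DMM members and 555 CPM in sham members. Without the members with over 1% of foreign UMIs, which include those of Hbb-bs itself, it was at 96.5 CPM in DMM and 125 CPM in sham.

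**Figure D4:**
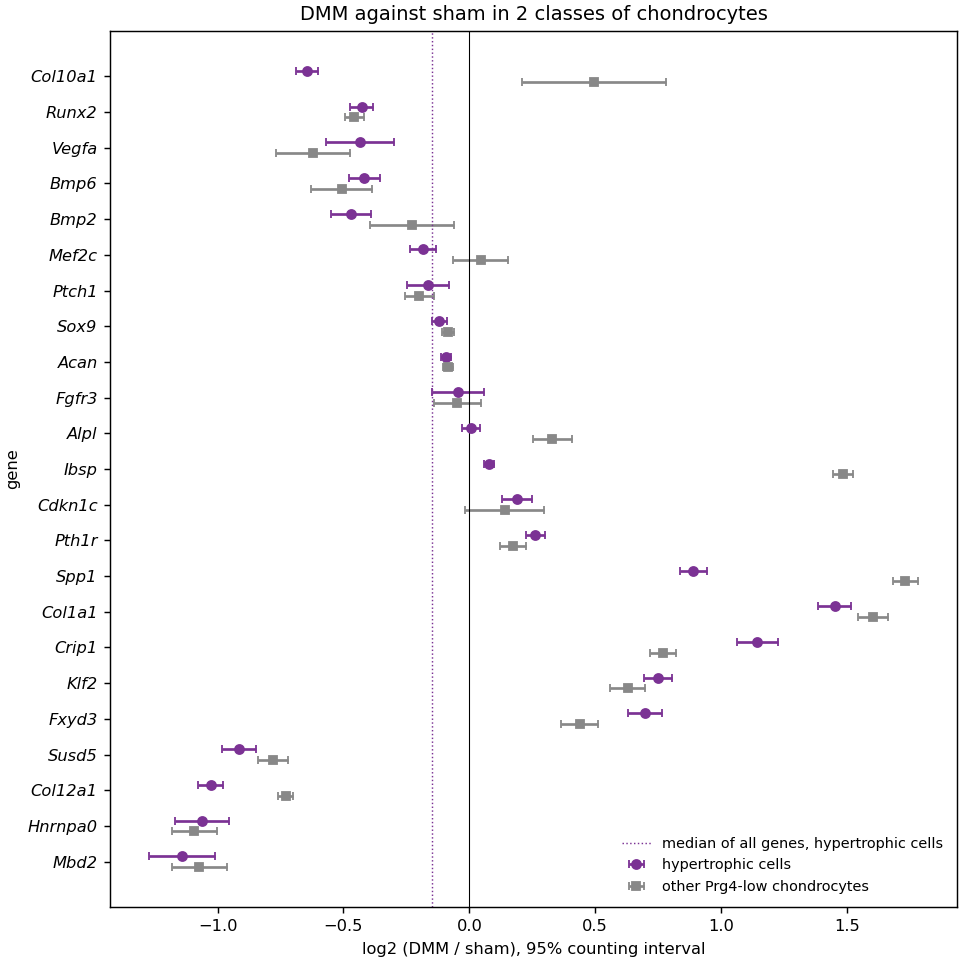
Log2 ratio of DMM over sham for 23 genes in hypertrophic cells (purple circles) and in other Prg4-low chondrocytes (grey squares), with 95% counting intervals; the dotted line is the median of all genes in hypertrophic cells, -0.15. Col10a1 lies at -0.64 in hypertrophic cells and 0.50 in the other chondrocytes, while Alpl lies at 0.01 in hypertrophic cells.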

How the data were processed

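RNA was measured in 2 single-cell libraries, DMM and sham, each pooled from 3 mice. The deposited values are raw UMI counts per gene and barcode, with no normalisation by the authors; Cell Ranger 7.1.0 made them per the file headers, while version 3.0.1 and the build mm10 stand in the submitters' processing notes. In all, 6 columns of a bulk table that name no sample here were not used.

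Counts of all cells in a class were added up within each library and scaled to CPM, with exact 95% intervals that cover counting error only. Member cells of DMM held 8170817 UMIs and those of sham 12295136 UMIs. Scrublet (scanpy 1.11.5, seed 1) served as an alternative that removed doublets. Python 3.11.15, numpy 2.4.6, scipy 1.17.1 and pandas 2.3.3 were used. Gene positions came from GENCODE vM21 (GRCm38). The scripts were tested on simulated data.

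The members, gene lists and rules were chosen with earlier results of these data known. Named genes were the 12 highest and 12 lowest DMM over sham ratios, and the 20 highest and 12 lowest class ratios with 1 sign in both libraries. They needed 100 or more UMIs, a level of 50 CPM or more on the higher side, an interval without 1 and no cell with over 25% of the UMIs of the higher library. Up to 5 genes of each list and a fixed set of hypertrophy genes were added. The text names some of these, and Mgp, Smpd3, Slc20a1, Vdr and Id2 after their values were seen.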

Additional observations from a re-analysis of the deposited data

Results flagged for a closer look

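Col10a1 was lower in DMM than in sham in hypertrophic cells (log2 ratio -0.64) and higher in DMM in the other Prg4-low chondrocytes (0.50), where its level was 18.0 CPM in DMM and 12.8 CPM in sham. The opposite signs drew attention to it, and the difference between the classes was not tested. The higher level in DMM lay only in the other chondrocytes with 0 of the 4 genes, with 102 UMIs in DMM and 37 UMIs in sham. Those with 1 gene had 16.6 CPM in DMM and 18.3 CPM in sham.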

How the results depend on the processing

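No paired analysis was possible because each group has 1 library. Of 586 values of named genes between DMM and sham under an alternative, 569 had the sign of the reported value. At least 124 of the 586 lay outside the counting interval of that value. Igfbp5 turned to -0.17 with a Col2a1 floor of 10000 CPM and Igfbp6 to -0.40 after thinning to 3000 UMIs. Of 988 such values between classes, 979 kept their sign and 0 of the genes past the limit reversed. Outside the counting interval of the reported value were 248 of the 988. Genes past 1.5-fold in DMM numbered 457 higher and 365 lower with median-of-ratios scaling, 81 higher and 356 lower after thinning, 280 higher and 1158 lower with a minimum of 50 UMIs, and 93 higher and 594 lower with a minimum of 200 UMIs. Between classes, thinning left 79 higher and 121 lower, of fewer genes tested. The share ratio was 0.763 over all filtered cells, and between 0.926 and 1.04 over the other alternatives. Leaving out cells with over 1% of UMIs from fibrous collagen and haemoglobin genes was chosen after the data were seen; it gave 110 higher and 931 lower genes in DMM. With 1 pool of 3 mice per group, differences between mice could not be measured, and Mmp13, at 84 UMIs in DMM members and 110 in sham members, is near the depth limit.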
